A study of Mus musculus with 4 samples.

Results

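The genes described here are the 10 protein-coding genes of the imprinted Cdkn1c and Phlda2 cluster on mouse chromosome 7, out of 20701 gene symbols in the transcript table. A member was taken as the row of the table that carries its symbol, and where a symbol had several transcript entries, the entry with the most reads over all libraries was kept (4 members had 1 entry and 6 had several). The members are Ascl2, Tspan32, Cd81, Tssc4, Kcnq1, Cdkn1c, Slc22a18, Phlda2, Nap1l4 and Osbpl5, in their order along the chromosome, and positions below are gene spans on the assembly NCBIM37. The cluster was picked because its genes had been seen to differ between these groups, so all differences of the members between groups are given as a description, and neither their calls nor their p-values are used as support.

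The study asks how the LIM-homeodomain factor Isl1 directs heart progenitors. RNA-Seq was performed on cardiac progenitor cells (CPCs) derived from E14 Tg(Nkx2-5-EmGFP) mouse embryonic stem cells, which carry a green fluorescent reporter of Nkx2-5 and had been kept on a feeder layer of mitomycin-treated embryonic fibroblasts (MEF). The 2 control libraries came from 2 control clones, and the 2 libraries labelled Isl1_KO came from 2 Isl1-/- clones of the same reporter line, made with CRISPR/Cas9 and a pair of guide RNAs. All 4 libraries were made from cells sorted for GFP at day 5 of cardiac differentiation, so both groups share the reporter and the sort, and each library stands for 1 clone. The series' own design text speaks of short hairpin knockdown lines, whereas the sample titles, genotype and protocol give knockout clones, and the latter were followed. Read totals over 1 entry per gene came to 8821517 and 9147425 for control and to 13186109 and 11388333 for Isl1-/- clones.

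Imprinted genes are expressed mainly from the chromosome inherited from one parent. In this domain, the long noncoding RNA Kcnq1ot1 is transcribed from the paternal copy, starting inside Kcnq1, and silences neighbouring genes on that copy, which leaves Cdkn1c, Phlda2, Slc22a18 and Kcnq1 expressed from the maternal copy in the embryo and the placenta. The genes farther out, here Ascl2, Tspan32, Cd81, Tssc4, Nap1l4 and Osbpl5, are imprinted mainly in the placenta. The first set is called the 4 inner members below and the second the 6 outer members. Cdkn1c encodes p57, an inhibitor of cyclin-dependent kinases that slows the cell cycle, and Phlda2 encodes a small protein with a pleckstrin homology domain that restrains placental growth. Kcnq1ot1 was not analysed here, and reads were not assigned to parental copies, so the values below are the sum over both copies.

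Start regions of 3 members are shown, because Phlda2 and Slc22a18 lie next to each other and both had lower values in the Isl1-/- libraries, while Cd81 is an outer member of high level in both groups. Each window runs from 250 bases before to 50 bases after the annotated start, 5′ to 3′ on the gene's own strand, with every CG dinucleotide in capitals (RefSeq windows, GRCm38.p6, matched without a mismatch to NCBIM37, the assembly behind mm9). They lie at chr7:150688380-150688679 on the minus strand (Phlda2), chr7:150659444-150659743 on the plus strand (Slc22a18) and chr7:150238405-150238704 on the plus strand (Cd81).
Phlda2: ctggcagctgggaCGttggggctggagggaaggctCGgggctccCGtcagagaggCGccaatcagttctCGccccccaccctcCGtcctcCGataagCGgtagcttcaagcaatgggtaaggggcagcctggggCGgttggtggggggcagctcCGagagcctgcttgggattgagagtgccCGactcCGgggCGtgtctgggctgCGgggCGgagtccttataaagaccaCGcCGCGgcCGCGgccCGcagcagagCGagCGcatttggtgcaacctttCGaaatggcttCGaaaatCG
Slc22a18: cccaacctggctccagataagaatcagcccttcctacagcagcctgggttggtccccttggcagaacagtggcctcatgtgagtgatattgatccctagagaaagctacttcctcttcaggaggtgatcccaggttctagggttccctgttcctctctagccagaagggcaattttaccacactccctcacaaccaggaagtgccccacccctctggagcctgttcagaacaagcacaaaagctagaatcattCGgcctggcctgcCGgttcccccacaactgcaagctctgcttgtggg
Cd81: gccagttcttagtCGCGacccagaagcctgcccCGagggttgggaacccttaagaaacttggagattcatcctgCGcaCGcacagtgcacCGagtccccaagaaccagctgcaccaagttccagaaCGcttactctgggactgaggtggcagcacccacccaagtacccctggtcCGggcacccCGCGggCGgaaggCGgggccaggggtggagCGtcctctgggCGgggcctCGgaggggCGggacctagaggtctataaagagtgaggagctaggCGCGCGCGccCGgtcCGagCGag

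The Phlda2 window held 26 CG dinucleotides, more than 83.1% of the 32851 windows of the same length, and its GC content was 65.7%. The Slc22a18 window held 2, more than 14.1% of all windows, at a GC content of 54.7%. The Cd81 window held 23, more than 78.5% of windows, and had the same GC content as that of Phlda2. Across all windows the median was 7 CG and 52.7% GC. The 2 inner windows at hand were thus unlike each other in CG content. Whether CG content goes with the lower values in the Isl1-/- libraries was not tested, and Slc22a18 had few reads. GGGCGG (a GC box), searched on both strands, occurred 2 times in the Phlda2 window and 3 times in that of Cd81, and in 35.7% of all windows. The Phlda2 window also held 1 CCAAT and 1 TATAAA, which were found in 37.4% and 13.6% of all windows, and the TATAAA match was shared by the Cd81 window. TAAT, the core letters bound by homeodomain proteins, was in none of the 3 windows and in 58.0% of all windows. A match of letters is not a binding site, and the lack of one within 300 bases says nothing about binding elsewhere. Windows were at hand for 7 of the 10 members, and not for Cdkn1c, Nap1l4 and Kcnq1.

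Isl1, the edited gene, was covered by 309 and 326 reads in control and by 17 and 24 in Isl1-/- libraries. Its level was 35.4 ± 0.421 CPM (reads scaled to library size) in control and 1.69 ± 0.548 CPM in Isl1-/- CPCs (SD, n = 2 each). On the log2 scale this is a difference of -4.39 (SE 0.212), with an adjusted p of 0.00277 by edgeR's quasi-likelihood test with Benjamini-Hochberg adjustment. The labels and the edited gene thus went together in all 4 libraries. Across 12715 genes that passed the filter on low counts, 311 were called at an adjusted p under 0.05, of which 64 were higher and 247 lower in Isl1-/- CPCs. This is 2.45% of the genes tested in either direction, 1.94% lower and 0.503% higher. An unadjusted p under 0.05 was far more common, at 2957 genes or 23.3% of those tested, and counts at that threshold below are to be read beside this share. DESeq2, used as an alternative test without the filter on low counts, called 604 genes, 172 higher and 432 lower. It was fitted to the 20701 genes less the 3846 that had no read in any library. Its counts below are to be read beside these numbers and not beside the edgeR share. The control libraries were closer to each other than the Isl1-/- libraries were (variance 1.13 times that of counting alone in the control pair and 17.7 times in the Isl1-/- pair). With 2 libraries against 2, an exact two-sided permutation test of a single value cannot go below p = 0.333.

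Of the 10 members, 8 passed the filter on low counts, and 2 of these were called, Cdkn1c and Phlda2, both lower in Isl1-/- CPCs. The other inner genes, Slc22a18 and Kcnq1, had few reads in any library. No outer member was called. Beside the background share above nothing is read from this count, since the cluster was chosen on this contrast. Summed over all 10 members, control libraries reached 1087 and 1084 CPM and Isl1-/- libraries 483 and 458 CPM. In bulk samples, fewer cells of a type and less RNA per cell cannot be told apart.

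**Figure D1:**
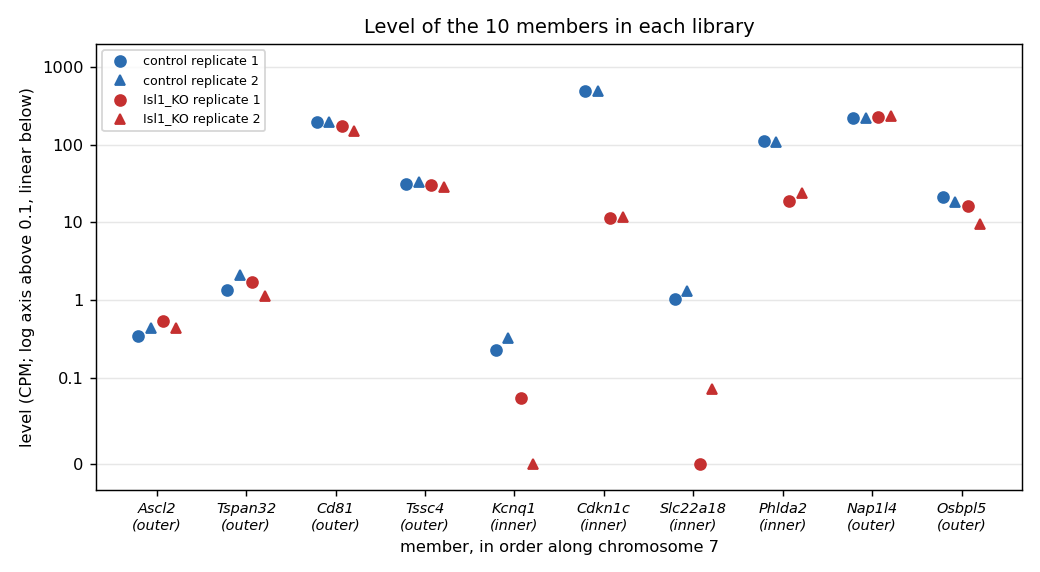
Level of the 10 members in CPM in each of the 4 libraries, in chromosome order, on an axis that is logarithmic above 0.1 and linear below. Cdkn1c sits near 501 CPM in both control libraries and near 11.7 CPM in both Isl1-/- libraries (labelled Isl1_KO), and Nap1l4 sits between 221 and 234 CPM in all 4.

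Cdkn1c (chr7:150644255-150646955, minus strand) was the member with the most reads in control CPCs, and nearly all of that level was missing in the Isl1-/- libraries. Its reads numbered 4409 and 4581 in control and 149 and 137 in Isl1-/- CPCs. This was 501 ± 0.542 CPM in control and 11.7 ± 0.306 CPM in Isl1-/- CPCs (SD, n = 2 each). Both Isl1-/- libraries were far below both control libraries, and libraries within a group lay close together. Cdkn1c fell by 5.42 on the log2 scale (SE 0.0785), or 42.9-fold. The Isl1-/- libraries taken one at a time stood at -5.44 and -5.39 relative to the control mean. Ordered from the lowest log2 fold change, Cdkn1c ranked 24 among the genes tested. Per length, Cdkn1c stood at 145.72 and 145.99 RPKM (reads scaled to library size and transcript length) in control, rank 118 and 113 among the 20701 genes. In the Isl1-/- libraries it had 3.33 and 3.59 RPKM, rank 8091 and 7987. The 2 Cdkn1c transcript entries, which share nearly all their reads, both gave -5.41 when every entry was fitted.

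Phlda2 (chr7:150687450-150688446, minus strand), whose CG-rich start region is printed above, was the other inner member of high level in control CPCs. With 989 and 997 reads in control and 245 and 273 in Isl1-/- CPCs, its level was 111 ± 2.24 CPM and 21.3 ± 3.43 CPM (SD, n = 2 each). The groups were well apart, and unlike Cdkn1c the gene kept a sizeable level in both Isl1-/- libraries. Phlda2 fell by 2.38 on the log2 scale (SE 0.125), or 5.21-fold, and the single Isl1-/- libraries stood at -2.55 and -2.22. Its RPKM was 86.33 and 83.92 in control (rank 289 and 294) and 14.45 and 18.91 in Isl1-/- CPCs (rank 3468 and 2676). In control, Phlda2 was below Cdkn1c in RPKM, and in both Isl1-/- libraries it was above it.

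Slc22a18 (chr7:150659626-150685239, plus strand), an organic cation transporter-like membrane protein, lies between Cdkn1c and Phlda2 and was near the floor of detection. Control libraries held 9 and 12 of its reads and Isl1-/- libraries 0 and 1, that is 1.02 and 1.31 CPM against 0 and 0.0868 CPM. The groups did not overlap, but the Isl1-/- values were below the 0.228 and 0.263 CPM that 3 reads amount to in those libraries. The level summed over libraries was 28.7 times as high in control as in Isl1-/- CPCs, with a 95% exact counting interval of 4.62 to 1187 from 21 reads against 1. This interval, like the floors, covers counting error only. The gene passed the filter only through the control libraries and was not called.

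Kcnq1 (chr7:150293159-150612955, plus strand), a potassium channel subunit of the heart and the gene that hosts the silencing RNA, was scarcely detected. Only 2 and 3 reads were counted in control and 1 and 0 in Isl1-/- CPCs, all at or under 3 reads, so a difference was not detectable at this depth and no fold is given. Reads were counted without regard to strand, and reads of Kcnq1 and of RNA antisense to its exons cannot be told apart.

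The genes on the side of Kcnq1 away from Cdkn1c showed small differences or none beyond their spread. Ascl2 (chr7:150152727-150155169), a basic helix-loop-helix factor needed for the placenta, had 3 and 4 reads in control and 7 and 5 in Isl1-/- CPCs and did not pass the filter. Its 0.341 and 0.438 CPM in control overlapped with 0.538 and 0.434 CPM in Isl1-/- CPCs. Tspan32 (chr7:150190951-150205549), a tetraspanin of blood cells, had 1.36 and 2.08 CPM in control and 1.69 and 1.13 CPM in Isl1-/- CPCs, with a log2 fold change of -0.28 (SE 0.392). Both genes were low throughout, with overlapping groups.

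Cd81 (chr7:150238644-150253839), a widely expressed tetraspanin, had 195 and 197 CPM in control and 176 and 149 CPM in Isl1-/- CPCs, a log2 fold change of -0.27 (SE 0.0953). Tssc4 (chr7:150255154-150256998) had 31.1 and 33.2 CPM in control and 30.1 and 28.3 CPM in Isl1-/- CPCs, a log2 fold change of -0.14 (SE 0.103). For both genes the Isl1-/- libraries lay below the control libraries by a small margin. An exon of Cd81 overlaps R74862, and one of Tssc4 overlaps Trpm5, on the other strand. Trpm5 had 0 reads in all 4 libraries, and the share of R74862 in the Cd81 reads cannot be told apart.

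On the Phlda2 side, Nap1l4 (chr7:150699484-150734997), a nucleosome assembly protein, had 224 and 221 CPM in control and 228 and 234 CPM in Isl1-/- CPCs. It was the only tested member whose Isl1-/- libraries both lay above the controls, by 0.05 on the log2 scale (SE 0.0619), although of the outer members it lies closest to an inner one. Osbpl5 (chr7:150874667-150942890), an oxysterol-binding protein relative, had 21.5 and 18.6 CPM in control and 16.3 and 9.46 CPM in Isl1-/- CPCs, a log2 fold change of -0.63 (SE 0.274). Its Isl1-/- libraries were both lower and stood apart from each other.

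In 6 of the 8 tested members both Isl1-/- libraries lay below both control libraries, in 1 above, and in 1 the groups overlapped. Among all genes tested, the groups did not overlap in 58.1%, with the Isl1-/- libraries below in 29% and above in 29.1%, so that such a split is common here. Of the outer members tested, 3 of 5 were below. None of these 5 was called by edgeR, 1 (Cd81) had an unadjusted p under 0.05, against 23.3% of all genes tested, and DESeq2 called 0.

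The median log2 fold change was -4.49 over the 3 inner members tested and -0.27 over the 5 outer members tested, a difference of -4.22. The median over all genes tested was -0.00272. The inner median is that of Slc22a18, whose fitted value depends on the prior count. With Slc22a18 put at the floor of 3 reads per library (-2.25), the inner median was -2.38 and the difference -2.12. Over Cdkn1c and Phlda2 alone the inner median was -3.90 and the difference -3.64. Taken one at a time, the Isl1-/- libraries gave differences of -3.64 and -2.40, in which the inner median is again that of Slc22a18. The direction was fixed by how the cluster was chosen and is no separate result. The 10 members span 790 kb, and the low values were in neighbouring genes within it. The outer members tested on either side ran from -0.63 (Osbpl5) to 0.05 (Nap1l4). Kcnq1, which lies between Tssc4 and Cdkn1c, did not pass the filter.

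**Figure D2:**
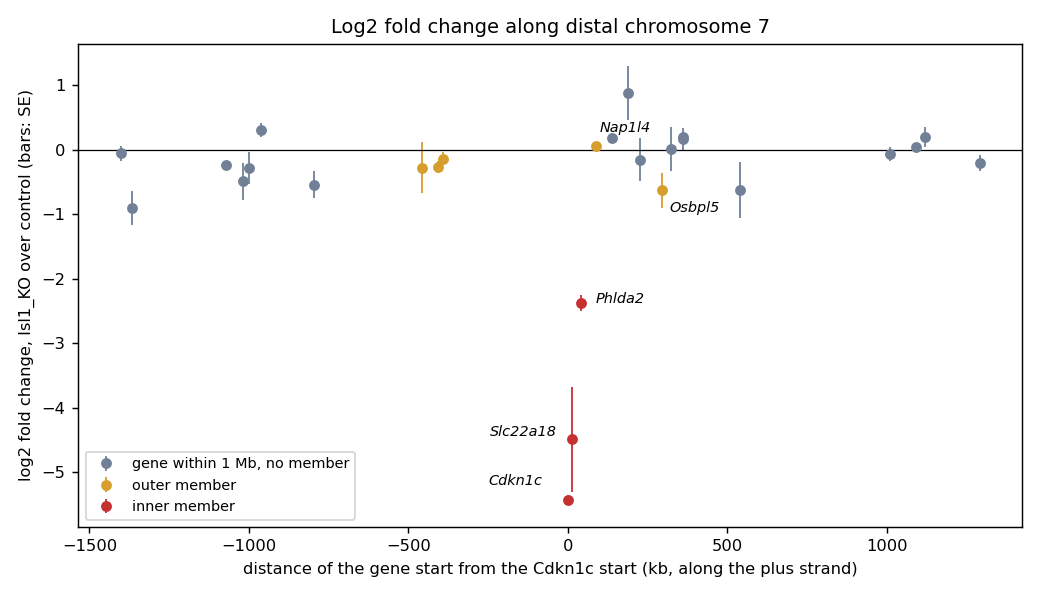
Log2 fold change of Isl1-/- (Isl1_KO) over control CPCs for each tested gene against the distance in kb of its start from that of Cdkn1c. Bars are SE of the fit over 2 libraries a group. Inner members are in red, outer members in yellow and other genes within 1 Mb of the cluster in grey; the 3 red points lie at -5.42, -4.49 and -2.38 and the grey points lie between -0.90 and 0.88.

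The genes around the cluster, which played no part in choosing it, were counted next. The table held 32 further genes inside the span of the cluster or within 1 Mb of it, of which 18 were tested. None was called by edgeR or by DESeq2. An unadjusted p under 0.05 was found for 5 of the 18, close to the 23.3% of all genes tested. These 5 were Ctsd, Dusp8, Dhcr7, Tnnt3 and Igf2, named after their values were seen except for Igf2. Their 18 log2 fold changes ran from -0.90 to 0.88 with a median of -0.06, and 8 lay above 0 and 10 below. Inside the span itself 5 further genes were in the table and 3 were tested, with a median of 0.19 and no call by edgeR or DESeq2, and with 0 at an unadjusted p under 0.05. Igf2, the paternally expressed growth factor of the adjoining imprinted domain, had 12968 and 12873 CPM in control and 10797 and 6906 CPM in Isl1-/- CPCs. Its log2 fold change was -0.55 (SE 0.211, adjusted p = 0.210 in edgeR), and the Isl1-/- libraries differed from each other more than the control libraries did.

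Per length, the order of the members in control CPCs was Cdkn1c, Phlda2, Cd81, Nap1l4, Tssc4, Osbpl5, Tspan32, Slc22a18, Ascl2 and Kcnq1, with mean RPKM from 145.855 down to 0.05. No neighbours in this order overlapped in their 2 libraries, but Tspan32 and Slc22a18 were apart only by 0.49 against 0.48 RPKM. The places from Tspan32 down rest on few control reads and are not settled. These were 12 and 19 for Tspan32, 9 and 12 for Slc22a18, 3 and 4 for Ascl2, and 2 and 3 for Kcnq1. In Isl1-/- CPCs the order was Cd81, Nap1l4, Phlda2, Tssc4, Cdkn1c, Osbpl5, Tspan32, Ascl2, Slc22a18 and Kcnq1. Here Cd81 (65.64 and 57.97 RPKM) and Nap1l4 (55.96 and 59.62 RPKM) overlapped, as did Slc22a18 and Kcnq1 at the bottom. Cdkn1c thus moved from the first to the fifth place, and the placenta-imprinted Cd81 and Nap1l4 took the top.

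Cdkn1c belongs to the Cip/Kip family of kinase inhibitors with Cdkn1a (p21) and Cdkn1b (p27). Cdkn1a had 15.88 and 14.39 RPKM in control and 14.19 and 14.04 RPKM in Isl1-/- CPCs, with a log2 fold change of -0.13 (SE 0.0947, adjusted p = 0.472 in edgeR). Cdkn1b had 13.84 and 16.48 RPKM in control and 13.94 and 14.72 RPKM in Isl1-/- CPCs, with a log2 fold change of -0.11 (SE 0.106, adjusted p = 0.583 in edgeR). Cdkn1c made up 83.1% and 82.5% of the summed RPKM of the family in control and 10.6% and 11.1% in Isl1-/- CPCs. The family sum was 175.44 and 176.86 RPKM in control and 31.46 and 32.35 RPKM in Isl1-/- CPCs. The levels of Cdkn1a and Cdkn1b in Isl1-/- CPCs were no higher than the highest control library of each.

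Phlda1 and Phlda3, the relatives of Phlda2 on other chromosomes, likewise passed no threshold. Phlda1 had 14.9 and 16.05 RPKM in control and 15.81 and 14.54 RPKM in Isl1-/- CPCs, and Phlda3 had 10.72 and 12.65 RPKM against 12.53 and 11.45 RPKM. Their log2 fold changes were -0.05 (SE 0.102, adjusted p = 0.798 in edgeR) and 0.01 (SE 0.134, adjusted p = 0.963 in edgeR). Phlda2 made up 77.1% and 74.5% of the family sum in control and 33.8% and 42.1% in Isl1-/- CPCs.

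**Figure D3:**
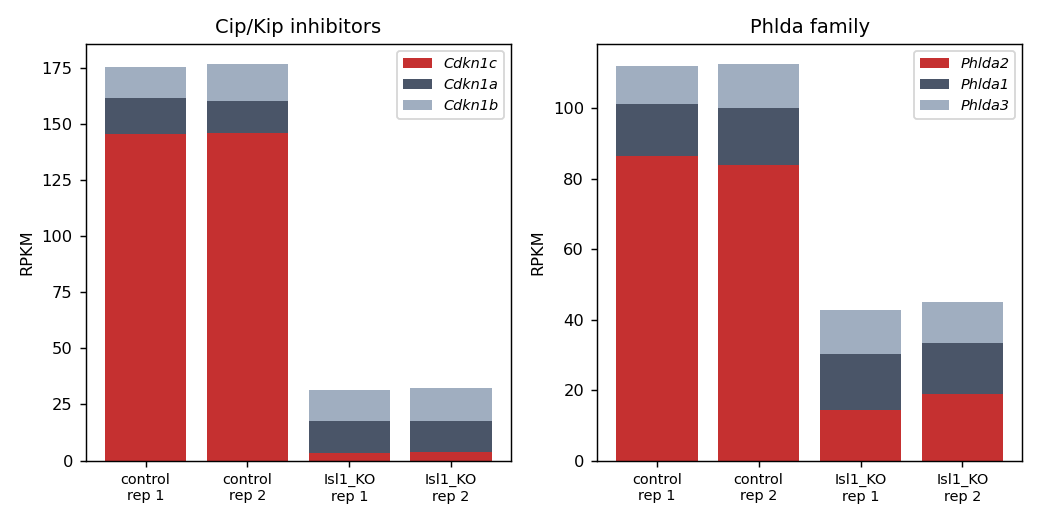
RPKM of the 3 Cip/Kip genes (left) and of the 3 Phlda genes (right) stacked for each library, from 0. The red parts, Cdkn1c and Phlda2, shrink in both Isl1-/- (Isl1_KO) libraries, from 145.72 and 145.99 to 3.33 and 3.59 RPKM for Cdkn1c, while the grey parts differ little in height.

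Of the Cip/Kip and INK4 inhibitors other than Cdkn1c, 5 of 6 listed genes were tested, with a median log2 fold change of -0.11. EdgeR called 0, DESeq2 called 0 and 0 had an unadjusted p under 0.05. Of 9 cyclins and kinases that p57 binds or that act beside them in G1 and S phase, 1 was called lower and 0 higher. Their median was 0.09, with 7 above 0 and 2 below, and 3 had an unadjusted p under 0.05. The gene called was Ccnd2, cyclin D2, with 143 and 145 CPM in control and 57.7 and 80.6 CPM in Isl1-/- CPCs. Ccnd2 fell by 1.06 on the log2 scale (SE 0.161, adjusted p = 0.0466 in edgeR), and this call was lost without either control library and under 2 further settings. DESeq2 also called Ccna2, cyclin A2, which was higher at 0.45 on the log2 scale and was named after its values were seen.

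Among 18 factors that write or keep the silent state of imprinted genes (Polycomb subunits, DNA methyltransferases and their partners), edgeR called 0, with a median of 0.11. At an unadjusted p under 0.05 there were 5, and DESeq2 called 2, Dnmt3l and Uhrf1, both higher in Isl1-/- CPCs and both named after their values were seen. Dnmt3l, a partner of the de novo DNA methyltransferases, had 1 and 5 reads in control and 17 and 58 in Isl1-/- CPCs, a log2 fold change of 3.18 (SE 1.01, adjusted p = 0.158 in edgeR).

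Imprinted growth genes outside the cluster were mostly lower in Isl1-/- CPCs too. Of 15 tested, 14 had a log2 fold change below 0, with a median of -0.55, and 9 had an unadjusted p under 0.05. Among all 12715 genes tested, 6412 lay below 0, and 23.3% had an unadjusted p under 0.05. Some of the falls were small, such as those of Peg10 (-0.04), Peg3 (-0.16) and Gnas (-0.17). Others were larger, such as those of Dlk1 (-2.12), Rtl1 (-1.20) and Igf2r (-1.14), which edgeR did not call. Igf2 is counted both in this list and among the neighbours above. EdgeR called 1 lower and 0 higher, and DESeq2 called 3 lower, Plagl1, Grb10 and Ndn, the latter pair named after their values were seen. The gene called by edgeR was Plagl1, a zinc finger growth regulator, with 7.15 and 8.21 CPM in control and 2.15 and 1.13 CPM in Isl1-/- CPCs, and a fall of 2.20 on the log2 scale (SE 0.332, adjusted p = 0.0462 in edgeR) that was no longer called without either control library. In 12 of the 15 the second Isl1-/- library was below the first, by a median over the 15 of -0.69 on the log2 scale. The same held for 4 of the 5 outer members tested, with a median of -0.24. Cdkn1c and Phlda2 were higher in the second library by 0.05 and 0.33. Whether these gaps differ between the sets of genes was not tested.

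**Figure D4:**
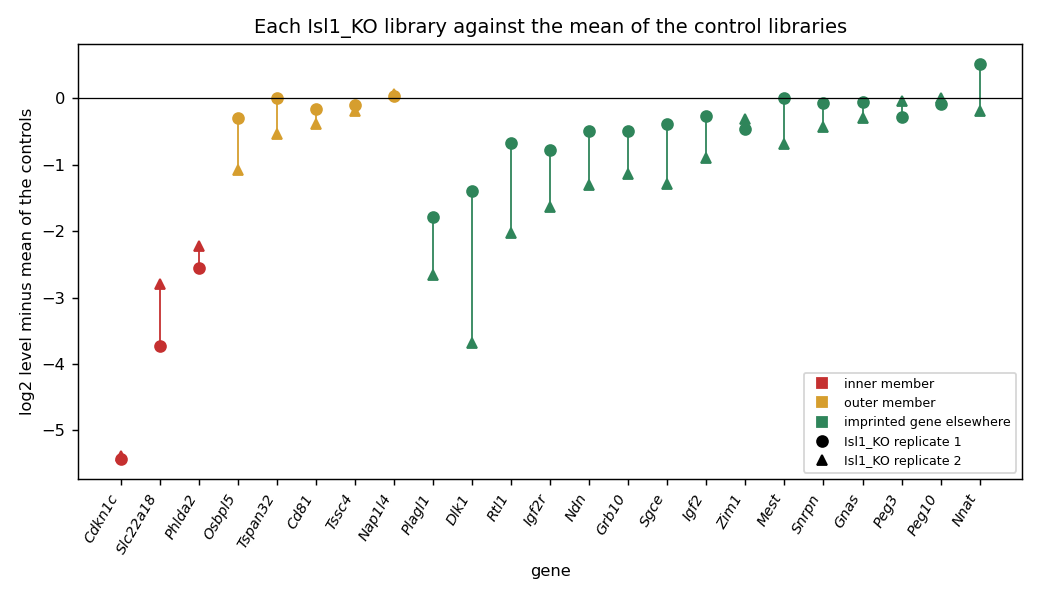
Log2 level of each of the 2 Isl1-/- (Isl1_KO) libraries minus the mean of the control libraries, for the tested inner members, outer members and imprinted genes elsewhere. Circles are replicate 1 and triangles replicate 2, joined by a line. The symbols of Cdkn1c lie almost on each other, at -5.44 and -5.39, whereas in 12 of the 15 genes elsewhere the triangle is below the circle.

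Markers of the cell types that the sort could hold were summed in each library. Of 9 cardiac progenitor markers, 5 were called lower by edgeR (Nkx2-5, Isl1, Mef2c, Tbx5 and Hand2). Isl1 among them is the edited gene itself. The calls of Nkx2-5, Tbx5 and Hand2 were lost without either control library. DESeq2 called 7 of the 9, and 8 had an unadjusted p under 0.05. The summed level of the 9 was 1225 and 1221 CPM in control and 699 and 709 CPM in Isl1-/- CPCs. Nkx2-5, whose reporter was used for the sort, fell 4.48-fold, Mef2c fell 18.7-fold, and Tbx5 fell 12.3-fold to 1.00 and 1.13 CPM. Kdr had 217 and 214 CPM in control and 186 and 278 CPM in Isl1-/- CPCs. Markers of the labelled cell type were thus detected in all 4 libraries, but several that define it were low in the Isl1-/- libraries. Of 7 fibroblast or mesenchyme markers, edgeR called 0, with a median of -1.46, 4 had an unadjusted p under 0.05 and DESeq2 called 1 (Dcn). Their sum was 2186 and 2134 CPM in control and 1369 and 499 CPM in Isl1-/- CPCs. The sum was lowest in the second Isl1-/- library, as were 6 of the 7 markers, the exception being Thy1 (2.72 and 3.06 CPM in control, 2.31 and 3.82 CPM in Isl1-/- CPCs).

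In the placenta most of the cluster is imprinted, so trophoblast markers were counted as well. Of 10 listed, 4 were tested and edgeR called 0, DESeq2 called 0 and 1 had an unadjusted p under 0.05. The 1 was Tfap2c, with 6.47 and 6.24 CPM in control and 8.92 and 15.4 CPM in Isl1-/- CPCs. Of the 4 tested, 3 had a log2 fold change above 0 and 1 below. Tpbpa, Prl3d1 and Prl3b1, which define placental lineages, had 0 reads in all 4 libraries. The summed level ran from 143 to 209 CPM without separating the groups. Most of this sum was Cdx2 (84.0 and 87.8 CPM in control, 140 and 69.0 CPM in Isl1-/- CPCs) and Ets2. Cdx2, Ets2 and Tfap2c were named after their values were seen. Blood markers summed to 374 and 381 CPM in control and 255 and 157 CPM in Isl1-/- CPCs, with 7 of 8 tested, 0 called by edgeR, 2 by DESeq2 and 4 at an unadjusted p under 0.05. They did not move one way: Hbb-bh1, an embryonic globin that holds most of the sum, had 284 and 293 CPM in control and 160 and 42.0 CPM in Isl1-/- CPCs. Of the DESeq2 calls, Hbb-y had a log2 fold change of -2.83 and the blood factor Tal1 one of 0.93. Endoderm markers (7 listed, 6 tested) summed to 63.6 and 61.2 CPM against 57.4 and 33.1 CPM, and pluripotency markers (4 listed, 2 tested) to 8.74 and 8.97 CPM against 9.22 and 21.5 CPM. Neither list had a call by edgeR or DESeq2, and 1 endoderm marker and 0 pluripotency markers had an unadjusted p under 0.05. The part of these cell types in the levels of the members was not tested.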

How the data were processed

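Stranded mRNA libraries of day 5 CPCs were sequenced by the authors, aligned with STAR to mm9 and quantified over exons per RefSeq transcript with HOMER, counting both strands (versions not given in the sources used here). The deposited table holds raw read counts for 31507 transcript entries, RPKM values that the authors computed with edgeR, and DESeq2 columns. Of the latter, the deposited baseMean signal, log2 fold change with its standard error, Wald score and p-value columns hold the authors' own comparison and were not used. All count and RPKM columns matched a sample, and 0 did not.

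For each of 20701 symbols the entry with the most reads was kept. Differences were tested on the deposited counts with edgeR 4.0.16 (R 4.3.3; TMM factors, filterByExpr, quasi-likelihood F test, two-sided), and p-values were adjusted over 12715 genes (Benjamini-Hochberg, threshold 0.05). CPM was taken over the kept entries. DESeq2 1.42.0, other factors and filters, all entries, a replicate block and the omission of each library were alternatives, and the edgeR script was tested on simulated data. Clones are the replicates, and whether each was differentiated separately is not stated, so p-values measure only the spread between these libraries. Depth was 8821517 to 13186109 reads over the kept entries, at which 3 reads, the floor used, amount to 0.228 to 0.340 CPM.

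Members and gene lists were chosen with earlier results of these data known. Named were the 10 members, Isl1, list and neighbouring genes called by edgeR, Cdkn1a, Cdkn1b, Igf2, H19, Phlda1 and Phlda3, and for Cdkn1c and Phlda2 the 3 genes of smallest Euclidean distance in log2 CPM among those with a mean of at least 2. H19, Meg3 and Kcnq1ot1 were not analysed here. Gene positions are those of NCBIM37 (GENCODE). Promoter windows came from RefSeq, and an exact match placed them on NCBIM37.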

Additional observations from a re-analysis of the deposited data

How the results depend on the processing

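Cdkn1c, Phlda2 and Isl1 kept their direction and their call under all 11 alternatives, with Cdkn1c between -5.45 and -5.40 and Phlda2 between -2.55 and -2.22 when single libraries were left out. The number of genes called was 311 with RLE factors, 217 with at least 10 reads in every library, 273 with all transcript entries, 492 without a filter, 604 with DESeq2, 993 with the criteria of the study (DESeq2, unadjusted p under 0.05 and a fold over 1.5) and 27 to 6350 when 1 library was left out. It was 27 and 29 without control replicate 1 and 2, and 6350 and 4176 without Isl1_KO replicate 1 and 2, where the spread came from the similar control pair alone. A lone library is assumed in such a fit to vary like the other group.

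Members called numbered 3 with the criteria of the study (Slc22a18 added), 2 to 5 with 1 library left out and 2 otherwise, the further calls being of Slc22a18 and Cd81 without either Isl1-/- library and of Osbpl5 without replicate 1. Neighbours called were 1 with the criteria of the study and 0 to 10 with a library left out. The counts with 1 library left out were 0 to 1 for the Cip/Kip and INK4 list, 0 to 6 for the cyclins, 0 to 14 for the silencing factors and 0 to 12 for imprinted genes elsewhere. The upper ends of these ranges, and of that for the neighbours, came from fits without an Isl1-/- library. Such fits called far more of all genes than the main fit, as given above, so these ends are not read as a trait of any list. The cyclin count was 2 without a filter and with DESeq2, and 0 with at least 10 reads in every library and with all entries. The silencing factors counted 1 without a filter and 2 under DESeq2 and under the criteria of the study, and imprinted genes elsewhere 3 and 7 under the latter pair. The inner minus outer difference was -3.28 without a filter, which adds Kcnq1 and Ascl2, and -5.35 to -3.18 with a library left out. With single libraries left out, genes near 0 changed sign: Tspan32 ran from -0.61 to 0.056, Cdkn1b from -0.23 to 0.024, Phlda1 from -0.14 to 0.035, Phlda3 from -0.10 to 0.14, Kdr from -0.21 to 0.37 and Thy1 from -0.33 to 0.40. Except where given, the cause was not tested. Slc22a18 could not be fitted with at least 10 reads in every library or without either control library.

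The titles number both groups' replicates 1 and 2. Deviations of same-numbered libraries were hardly correlated (r = 0.01 across 12715 genes, which are not independent). The control libraries differed by little more than counting (variance 1.13 times that of counting alone), so a low r could arise with or without pairing. Whether the numbers pair the libraries is therefore not decided. A replicate block gave 454 calls, 294 of them shared with the 311, with 2 members, 1 silencing factor and 2 imprinted genes elsewhere called. Depth limits what can be said of Slc22a18, Kcnq1, Ascl2 and Tspan32, whose reads number 22 or fewer in every library.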

Other observations

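The genes whose levels over the 4 libraries were most like those of Cdkn1c, among 10763 genes of sufficient level, were Myl7, Myh7 and Ccdc141, at Euclidean distances of 0.331, 0.460 and 0.909 on the log2 scale. Myl7, the atrial myosin light chain, had 203 and 205 CPM in control and 3.77 and 4.25 CPM in Isl1-/- CPCs. Myh7, a cardiac myosin heavy chain whose reads may be shared with the near-identical Myh6, had 325 and 324 CPM against 6.0 and 5.99 CPM. The log2 fold changes of the 3 genes were -5.67, -5.76 and -4.93, beside -5.42 for Cdkn1c.

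For Phlda2 the most similar genes were Ppp1r14c, Rassf5 and Ppp1r3d, at distances of 0.189, 0.265 and 0.315. Ppp1r14c, an inhibitor of protein phosphatase 1, had 12.7 and 14.3 CPM in control and 2.23 and 2.60 CPM in Isl1-/- CPCs. The log2 fold changes of the 3 genes were -2.48, -2.46 and -2.23. The nearest genes of Cdkn1c and of Phlda2 were different ones, since the size of the difference between groups enters the distance. These genes were selected for their likeness over the same 4 libraries, and no test applies.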
